A study of Mus musculus with 12 samples.

Results

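The sensors and effectors of the unfolded protein response (UPR) were followed in skeletal muscle of mice with a knockout (KO) of H6pd and of wild type (WT) mice. The product of H6pd, hexose-6-phosphate dehydrogenase, works inside the endoplasmic reticulum (ER), where it reduces NADP+ to NADPH. The 10 genes were chosen by name, with earlier results of these data known. They were the ER sensors Ern1, Eif2ak3 and Atf6, the transcription factors Xbp1, Atf4, Ddit3 and Atf3, and the effectors Ppp1r15a, Trib3 and Casp12. Of 18193 genes with a probe set of their own, these 10 were read by 26 of the 45101 probe sets on the array, all those annotated to 1 of these symbols alone. The 4 groups were KO tibialis anterior (TA), WT TA, KO soleus and WT soleus, each from mice 4 weeks old and each with 3 one-colour Affymetrix arrays, which the labels call biological replicates. Soleus is rich in slow oxidative fibres and TA in fast fibres, and the design text states that no overt myopathy was seen on histology at this age. The labels give no treatment, strain, deleted exon or tissue-restricted driver for the knockout, and the groups share none that they name.

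The UPR adjusts the ER to its load of unfolded protein. IRE1alpha, encoded by Ern1, splices the Xbp1 mRNA so that the active transcription factor XBP1 is made. ATF6alpha is cut in the Golgi to release a transcription factor. PERK, encoded by Eif2ak3, phosphorylates eIF2alpha, which lowers protein synthesis in general while translation of Atf4 mRNA goes up; ATF4 in turn drives Ddit3 (the protein CHOP), Atf3, Trib3 and, through CHOP, Ppp1r15a (GADD34), which brings the eIF2alpha phosphatase. Caspase-12 is a protease of the ER membrane that was linked to cell death under ER stress in mice. Much of this signalling acts on splicing, cleavage and phosphorylation, none of which an array of transcript levels records.

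Signals are log2 values after quantile normalization. A background mark was set at log2 4.60, the level under which 95% of the values of 42 genes of other organs lay (62 probe sets). Where a group mean lay at or under the mark, the fold change was counted from the mark. It is then a lower bound for the group means, not for single arrays. Of the 26 probe sets, 23 passed a filter on low values, with at least 1 for each of the 10 genes; the 3 left out (2 of Ern1 and 1 of Eif2ak3) had group means from log2 2.01 to 2.16. For each gene the brightest probe set is called the leading one. Differences were tested per probe set with limma over all 22648 tested probe sets, with Benjamini-Hochberg adjusted p-values and a threshold of 0.05. With 3 arrays per group the number of arrays limits the precision of every value, and for 1 gene the smallest p that an exact permutation of 3 against 3 arrays allows is 0.1. In whole muscle, fewer cells of a type and less RNA per cell cannot be told apart.

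The muscles matched their labels: slow fibre markers summed to 313088 to 371812 units of unlogged signal in KO soleus and to 313856 to 355973 in WT soleus, against 5004 to 8786 in KO TA and 1914 to 5052 in WT TA. The arrays numbered 3 stood apart in every group, on a principal component with 23.8% of the variance, where they lay between -55.1 and -39.0 and the other arrays between 11.1 and 32.3. The probe set of the targeted gene, H6pd, averaged 6.96 in KO TA against 6.85 in WT TA, and 4.90 in KO soleus against 6.27 in WT soleus. Neither difference passed the test (adjusted p = 0.972 and 0.654). Whether this probe set lies in the deleted part of H6pd is not stated in the labels, so it cannot check the genotypes, which were taken from the titles.

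Promoter sequences are shown for the 3 genes that passed a test between groups on their leading probe set (Ddit3, Casp12 and Atf3) and for Trib3, which shares a motif with Atf3. Each runs 5′ to 3′ from 250 bases before to 50 bases after the start of the gene, from RefSeq, build GRCm38.p6, and capitals mark motif matches.
Ddit3, chr10:127290543-127290842, plus strand: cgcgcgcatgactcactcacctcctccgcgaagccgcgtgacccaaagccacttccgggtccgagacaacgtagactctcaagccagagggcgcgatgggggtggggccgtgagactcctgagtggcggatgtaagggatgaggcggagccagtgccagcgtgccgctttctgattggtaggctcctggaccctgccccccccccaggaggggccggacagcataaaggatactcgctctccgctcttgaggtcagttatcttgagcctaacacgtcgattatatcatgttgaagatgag
Atf3, chr1:191183284-191183583, minus strand: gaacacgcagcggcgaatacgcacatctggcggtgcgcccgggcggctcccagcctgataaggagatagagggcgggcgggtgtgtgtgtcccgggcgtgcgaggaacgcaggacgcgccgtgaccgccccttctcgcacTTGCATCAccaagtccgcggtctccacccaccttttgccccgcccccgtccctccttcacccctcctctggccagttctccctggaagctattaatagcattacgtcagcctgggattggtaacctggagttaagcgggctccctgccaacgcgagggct
Trib3, chr2:152344011-152344310, minus strand: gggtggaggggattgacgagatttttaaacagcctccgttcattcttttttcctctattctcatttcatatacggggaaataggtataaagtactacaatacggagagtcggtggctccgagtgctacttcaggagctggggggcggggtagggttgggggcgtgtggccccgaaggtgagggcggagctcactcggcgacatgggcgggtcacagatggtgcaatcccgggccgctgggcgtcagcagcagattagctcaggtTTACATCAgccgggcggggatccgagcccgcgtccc
Casp12, chr9:5345226-5345525, plus strand: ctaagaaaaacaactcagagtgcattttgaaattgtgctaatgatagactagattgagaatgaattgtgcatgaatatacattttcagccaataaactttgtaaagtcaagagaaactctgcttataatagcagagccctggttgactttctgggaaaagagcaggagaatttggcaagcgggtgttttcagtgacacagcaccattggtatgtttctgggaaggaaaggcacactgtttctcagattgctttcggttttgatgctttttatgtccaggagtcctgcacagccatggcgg

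A promoter was given for 9 of the 10 genes, the exception being Atf6. Motifs were searched on both strands: the ER stress response element (CCAAT, any 9 bases, then CCACG), its second form (ATTGG, any 1 base, then CCACG), the unfolded protein response element TGACGTGG, the core TGATGNAA of the element bound by C/EBP and ATF factors, and the cyclic AMP response element TGACGTCA. The C/EBP-ATF core was found in 2 of the 9, Atf3 (TTGCATCA, from -110 to -103) and Trib3 (TTACATCA, from 15 to 22), both on the opposite strand, and in 3.6% of 21262 promoter windows of protein-coding genes. The cyclic AMP element was found in Ppp1r15a (-12 to -5) and in 2.23% of all windows. The other 3 motifs were in none of the 9 windows and in 0.141%, 0.0517% and 0.705% of all windows. These matches are descriptions of the windows only.

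In KO TA, Ddit3 rose and Casp12 fell, while the sensors and the other transcription factors had higher means without passing the test. Over all tested probe sets 2.02% passed in this comparison (458 of 22648), and of the 23 member probe sets 3 did: 1 of Ddit3, higher, and both of Casp12, lower. Of the 10 leading probe sets 9 had a higher mean in KO TA, at a median log2 difference of 0.84, whereas the median of all tested probe sets was -0.0043. Such a shift was not particular to the members. Among slow fibre markers 9 of 10 were likewise higher in KO TA, at a median of 1.14, and none passed. The KO and WT values did not overlap, with KO higher, for 4 of the 10 leading probe sets (Xbp1, Atf6, Atf4 and Ddit3), against 10.3% of all tested probe sets. As the members were chosen with earlier results of these data known, these counts are descriptions.

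**Figure D1:**
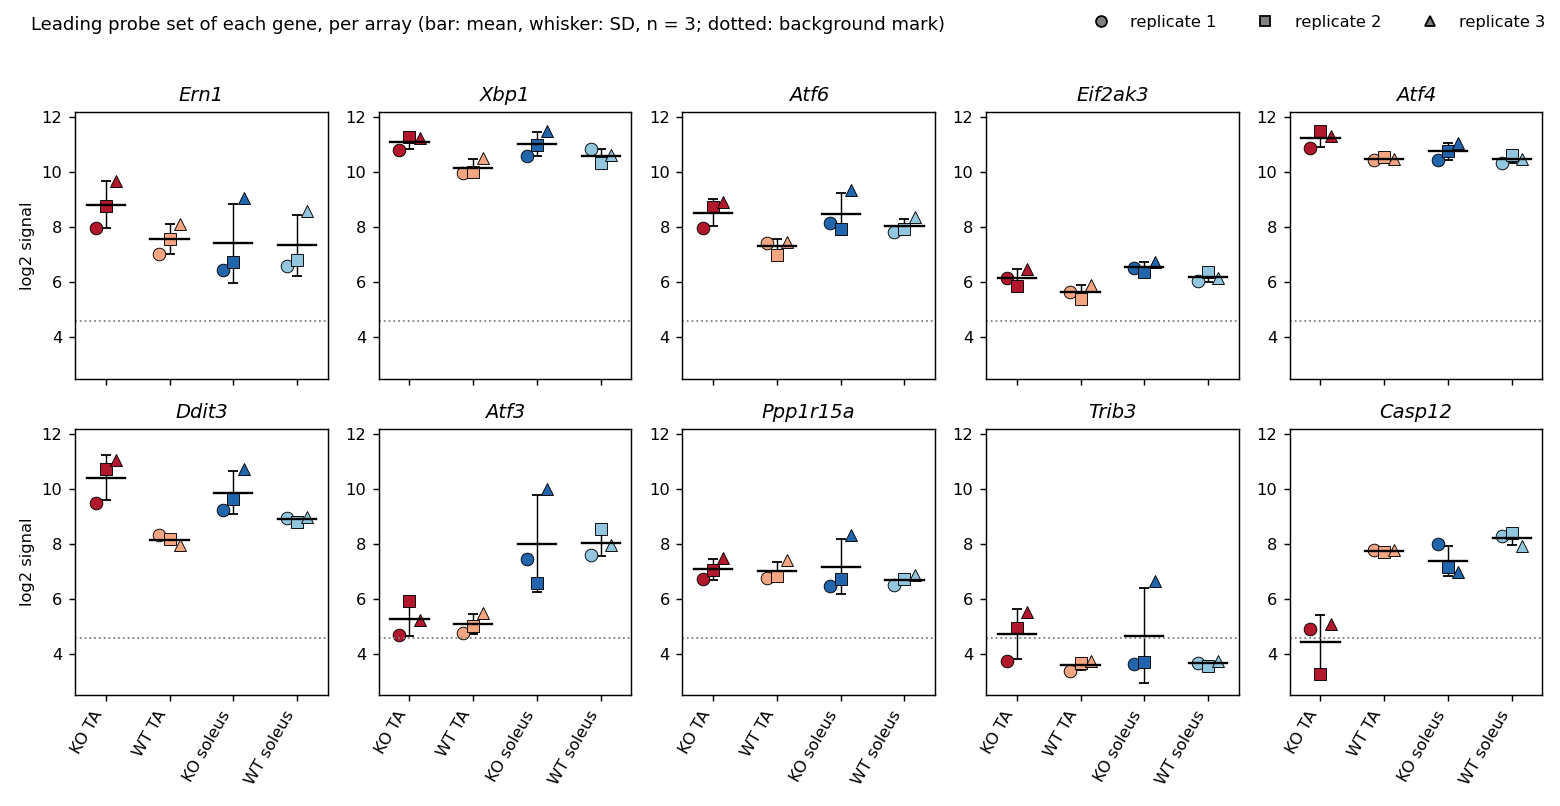
Log2 signal of the leading probe set of each of the 10 genes on every array, by group (KO TA, WT TA, KO soleus, WT soleus; circle, square and triangle for replicates 1, 2 and 3). Horizontal bars are means, whiskers SD (n = 3), and the dotted line is the background mark; Ddit3 lies higher and Casp12 lower on all 3 KO TA arrays than on any WT TA array.

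In the IRE1 branch the sensor itself varied widely between arrays. Ern1 signal on its leading probe set (1437119_at) was 7.996, 8.79 and 9.70 in KO TA against 7.02, 7.57 and 8.12 in WT TA, and 6.46, 6.75 and 9.06 in KO soleus against 6.60, 6.83 and 8.61 in WT soleus. The array numbered 3 was the highest in each group, and KO and WT values overlapped in both muscles. The difference was 1.26 in TA (SE 0.77, adjusted p = 0.499) and 0.08 in soleus (SE 0.77, adjusted p = 1). The sign in soleus turned when KO soleus replicate 3 was left out (-0.74). A dimmer Ern1 probe set (1438583_at), less variable, read 4.86, 5.54 and 5.65 in KO TA against 4.83, 4.58 and 4.78 in WT TA, without overlap (0.62, SE 0.21, adjusted p = 0.175), but in soleus it read 4.19, 4.51 and 4.69 in KO against 4.77, 4.71 and 4.78 in WT. There all KO arrays lay below all WT arrays (-0.29, adjusted p = 0.873). The third tested one, with every group mean under the background mark, differed by -0.16 in TA (SE 0.18, adjusted p = 0.76).

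Xbp1, whose spliced mRNA encodes the transcription factor of this branch, gave like values on 3 bright probe sets. On the leading one (1437223_s_at) signal was 10.82, 11.29 and 11.25 in KO TA against 9.99, 10.001 and 10.53 in WT TA, and 10.61, 10.999 and 11.51 in KO soleus against 10.85, 10.36 and 10.62 in WT soleus. The groups did not overlap in TA and did in soleus. In TA the 3 bright probe sets differed by 0.95 (SE 0.25, adjusted p = 0.0897), 0.63 (SE 0.19, adjusted p = 0.134) and 0.79 (SE 0.25, adjusted p = 0.156), each without overlap, and in soleus by 0.43, 0.52 and 0.51. With the replicate number as a block, the leading probe set passed in TA (0.95, SE 0.21, adjusted p = 0.0413). The fourth and dimmest differed by 0.05 in TA and 0.11 in soleus. The annotation does not say which Xbp1 splice form a probe set reads.

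Atf6, the sensor that is itself a transcription factor precursor, had 3 probe sets, all with higher means in KO muscle. On the leading one (1435444_at) signal was 7.97, 8.73 and 8.91 in KO TA against 7.45, 7.01 and 7.47 in WT TA. In soleus it was 8.15, 7.93 and 9.35 in KO against 7.84, 7.93 and 8.36 in WT. Every KO TA array was above every WT TA array, and the soleus groups overlapped. The difference in TA was 1.23 (SE 0.37, adjusted p = 0.138) and passed with the replicate block (SE 0.27, adjusted p = 0.0439); the other probe sets differed there by 1.33 and 0.65. In soleus the 3 differed by 0.43, 0.86 and 0.51, and the first of these was -0.0012 without KO soleus replicate 3.

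The PERK branch opens with the kinase Eif2ak3, whose leading probe set (1449278_at) read 6.15, 5.88 and 6.50 in KO TA against 5.66, 5.38 and 5.91 in WT TA. In soleus it read 6.54, 6.36 and 6.73 in KO against 6.04, 6.36 and 6.15 in WT. KO and WT overlapped in both muscles, at differences of 0.52 in TA (SE 0.20, adjusted p = 0.25) and 0.36 in soleus (SE 0.20, adjusted p = 0.783). Its second tested probe set lay under the background mark in all 4 groups (0.54 in TA, adjusted p = 0.345).

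Atf4, the transcription factor translated when eIF2alpha is phosphorylated, was among the brighter members. Its leading probe set (1448135_at) read 10.91, 11.50 and 11.31 in KO TA against 10.45, 10.56 and 10.49 in WT TA. In soleus the values were 10.45, 10.78 and 11.08 in KO and 10.34, 10.62 and 10.49 in WT. The TA groups did not overlap and the soleus groups did. The difference was 0.74 in TA (SE 0.18, adjusted p = 0.0717) and 0.29 in soleus (SE 0.18, adjusted p = 0.836). In TA it passed with the replicate block (adjusted p = 0.0202), with median centring (0.80, adjusted p = 0.0387), with a filter on mean signal (adjusted p = 0.0481) and without KO TA replicate 1 (0.90, adjusted p = 0.0354). Another bright probe set, 1438992_x_at, of a kind that can read related sequences, differed by 0.33 in TA (SE 0.38, adjusted p = 0.764). A dimmer one (1439258_at), with every group mean under the background mark, differed by -0.04 in TA.

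Ddit3, which encodes CHOP, was the member that rose past the test in KO TA. Signal on its leading probe set (1417516_at) was 9.50, 10.73 and 11.05 in KO TA against 8.32, 8.18 and 7.98 in WT TA. In soleus it was 9.23, 9.65 and 10.75 in KO against 8.94, 8.83 and 8.99 in WT. KO arrays lay above WT arrays without overlap in both muscles, and in both the KO arrays were spread more widely (SD 0.82 and 0.78 in KO TA and KO soleus against 0.17 and 0.08 in WT TA and WT soleus, n = 3 each). In TA the difference was 2.27, or 4.82-fold (limma, SE 0.43, adjusted p = 0.0303), and in soleus it was 0.96 (SE 0.43, adjusted p = 0.645).

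The call for Ddit3 in TA was lost without KO TA replicate 2 (2.11, adjusted p = 0.116) or 3 (1.96, adjusted p = 0.104), and likewise without any 1 WT TA array (2.18 to 2.34) or WT soleus replicate 2 (2.27, adjusted p = 0.0522). It was lost as well without the arrays numbered 3 (1.87, adjusted p = 0.113), with the TA arrays alone (2.30, adjusted p = 0.115) and with no filter on low values (adjusted p = 0.0514). Under 13 of the 22 alternative settings the call was kept, among them the replicate block (limma, adjusted p = 0.0194). A dimmer Ddit3 probe set (1443897_at), under the background mark in all 4 groups, read 4.15, 4.50 and 4.69 in KO TA against 3.83, 3.48 and 3.91 in WT TA (0.70, SE 0.23, adjusted p = 0.163, and adjusted p = 0.0412 with the replicate block). In soleus this probe set read 4.27, 4.05 and 4.45 in KO against 4.19, 4.08 and 4.88 in WT. There the groups overlapped, and the difference of -0.13 was opposite in sign to that of the leading probe set.

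**Figure D2:**
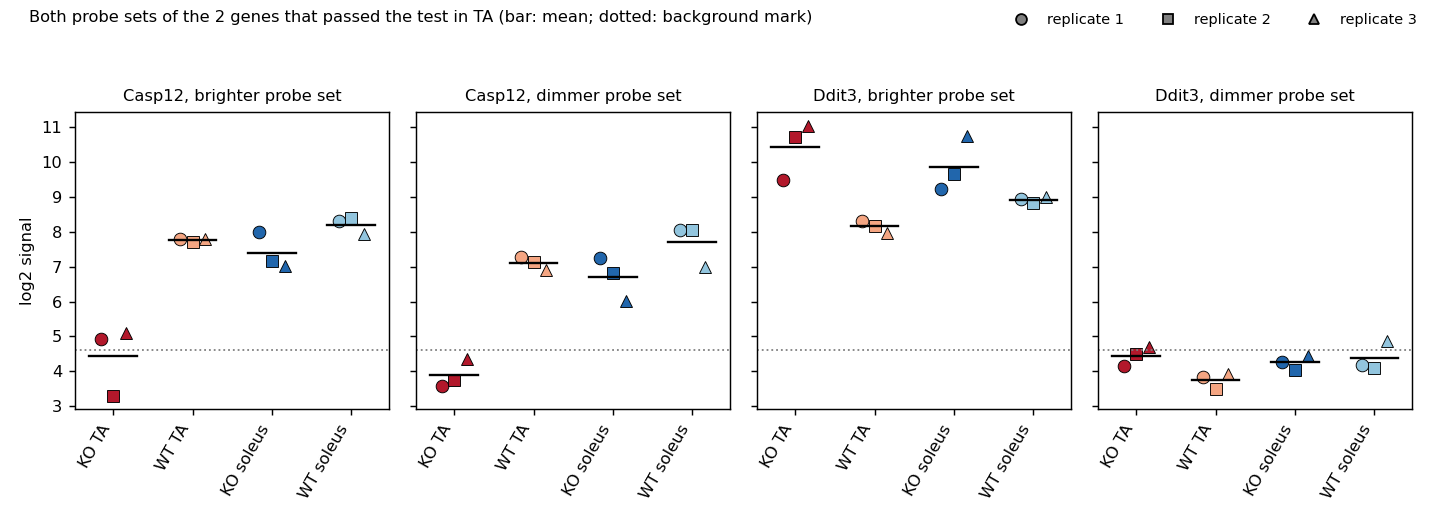
Log2 signal of both probe sets of Casp12 and of Ddit3 on each array, by group, with bars at the means and a dotted line at the background mark. Both Casp12 probe sets are lowest on the 3 KO TA arrays; the brighter Ddit3 probe set is above 9 on all KO arrays of both muscles and under 9 on all WT arrays, and the dimmer one has every group mean under the mark.

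The targets of ATF4 and CHOP within this set did not follow Ddit3 on every array. Trib3, a pseudokinase that restrains AKT and ATF4 activity, read 3.74, 4.94 and 5.54 on its leading probe set (1426065_a_at) in KO TA against 3.39, 3.67 and 3.75 in WT TA. In soleus it read 3.66, 3.70 and 6.66 in KO against 3.68, 3.57 and 3.75 in WT. All WT arrays were under the background mark, and above it stood KO TA replicates 2 and 3 and KO soleus replicate 3. The differences of 1.14 in TA (SE 0.72, adjusted p = 0.521) and 1.01 in soleus (SE 0.72, adjusted p = 0.879) did not pass, and that in soleus was 0.01 without KO soleus replicate 3. A second probe set read 7.29 on KO TA replicate 3 and 7.42 on KO soleus replicate 3, against at most 4.13 on every other array.

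Ppp1r15a, the phosphatase subunit that reverses eIF2alpha phosphorylation, read 6.72, 7.06 and 7.49 in KO TA against 6.79, 6.84 and 7.42 in WT TA. In soleus it read 6.49, 6.72 and 8.33 in KO against 6.53, 6.74 and 6.87 in WT. The KO and WT ranges coincided apart from KO soleus replicate 3. The difference was 0.07 in TA (SE 0.43, adjusted p = 0.972) and 0.47 in soleus (SE 0.43, adjusted p = 0.946). The difference in soleus turned to -0.11 without that array.

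Atf3, a stress-induced transcription factor, differed by muscle. Its signal was 4.69, 5.95 and 5.25 in KO TA against 4.79, 5.02 and 5.51 in WT TA, and 7.46, 6.60 and 10.02 in KO soleus against 7.62, 8.55 and 7.99 in WT soleus. Every soleus array was above every TA array, and KO and WT overlapped within each muscle (0.19 in TA and -0.03 in soleus, SE 0.74, adjusted p = 0.952 and 1). Between WT muscles, where 7.7% of all tested probe sets passed, Atf3 was 7.72-fold higher in soleus than in TA (2.95, SE 0.74, adjusted p = 0.0398), the 1 member probe set to pass. This call was lost with no filter on low values (adjusted p = 0.0606), with a pseudocount of 32 (2.16, adjusted p = 0.0736), and without any 1 WT array (2.70 to 3.17), KO soleus replicate 1 (adjusted p = 0.0537), KO TA replicate 1 (0.0511) or KO TA replicate 3 (0.0575). In KO muscles Atf3 was 8.03 ± 1.78 in soleus and 5.30 ± 0.63 in TA (SD, n = 3 each; 2.73, SE 0.74, adjusted p = 0.0579), and passed with the replicate block (adjusted p = 0.0385).

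Casp12 was lower in KO TA. On its leading probe set (1449297_at) signal was 4.92, 3.29 and 5.11 in KO TA against 7.80, 7.71 and 7.78 in WT TA. In soleus it was 7.99, 7.18 and 7.01 in KO and 8.30, 8.40 and 7.94 in WT. A second probe set (1418981_at) read 3.59, 3.75 and 4.35 in KO TA against 7.27, 7.13 and 6.90 in WT TA, and 7.25, 6.82 and 6.01 in KO soleus against 8.07, 8.05 and 6.98 in WT soleus. On both probe sets the 3 KO TA arrays lay lower than all other arrays, and KO and WT soleus overlapped.

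The fall of Casp12 in KO TA was -3.33 on the leading probe set (limma, SE 0.44, adjusted p = 0.0111) and -3.21 on the other (SE 0.38, adjusted p = 0.00836). Both KO TA means, 4.44 ± 1.002 and 3.90 ± 0.40 (SD, n = 3), were under the background mark. Counted from the mark, the fall between group means was 9-fold and 5.68-fold. The 9-fold figure is no lower bound for single arrays. On the leading probe set KO TA replicates 1 and 3 read 4.92 and 5.11, above the mark. On the leading probe set the call was kept when any single array was left out (-3.66 to -2.75, adjusted p up to 0.0399) and lost when the TA arrays were fitted alone (-3.29, adjusted p = 0.0932) or the arrays numbered 3 were left out (-3.62, adjusted p = 0.0704). In soleus the differences were -0.82 (SE 0.44, adjusted p = 0.76) and -1.002 (SE 0.38, adjusted p = 0.52).

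Markers of other cells were measured beside these changes. Lymphocyte markers summed to 249 to 343 units in KO TA against 1610 to 2211 in WT TA. Of the 7, 5 (Cd3e, Cd3g, Cd79a, Cd79b and Ms4a1) were under the background mark in both groups. The difference in the sum lay in Ighm alone (-3.51, limma, adjusted p = 0.0115). The other marker above the mark, Ptprc, averaged 5.94 in KO TA against 5.74 in WT TA (0.20, adjusted p = 0.909). Macrophage markers summed to 1560 to 5228 units in KO TA and 1692 to 3072 in WT TA, with 8 of 10 above the mark in each and Cd14 and Itgam under it. Slow fibre markers summed to 5004 to 8786 units in KO TA and 1914 to 5052 in WT TA, ranges that overlap, with 9 of 10 above the mark in both, Myh7b under it, and 0 of 10 past the limma test. Of these markers 9 of 10 had a higher mean in KO TA, at a median log2 difference of 1.14. Of 11 fast fibre markers only 3 had a higher mean in KO TA, at a list median log2 difference of -0.13. Myh2, the myosin of type 2A fibres, was the 1 of them to pass, at 14.50 in KO TA against 12.85 in WT TA (1.64, limma, adjusted p = 0.0149). Fast fibre markers together summed to 480162 to 536693 units in KO TA and 535029 to 551462 in WT TA, with 11 of 11 above the mark in both. Among tendon markers Thbs4 was lower in KO TA, at 9.94 against 11.52 in WT TA (-1.58, adjusted p = 0.033). Tendon markers summed to 5438 to 12287 units in KO TA and 9149 to 10462 in WT TA, with 5 of 6 above the mark and Mkx under it. The part of these cells in the results for Ddit3 and Casp12 was not tested.

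**Figure D3:**
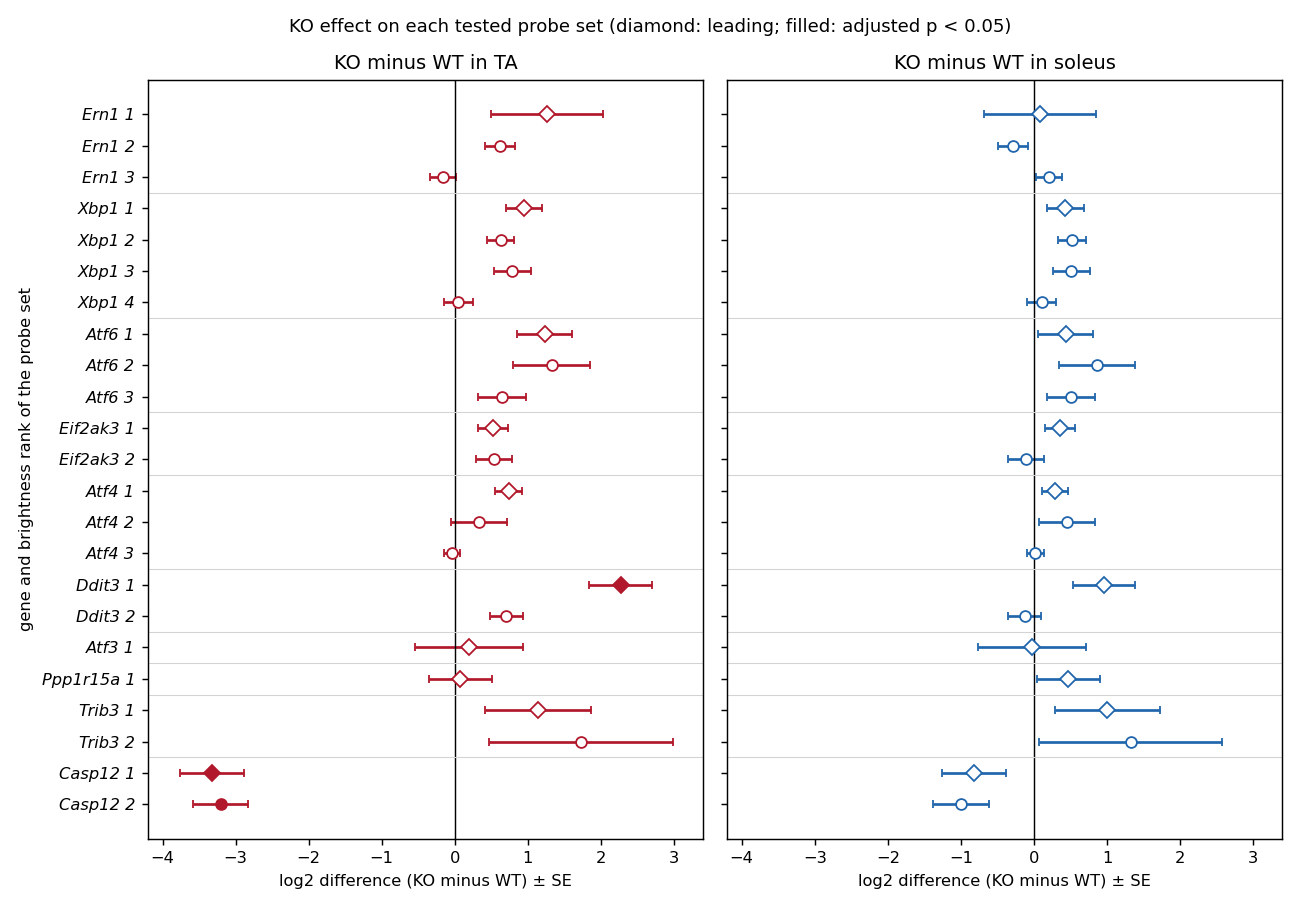
Log2 difference, KO minus WT, of each of the 23 tested probe sets in TA (left) and soleus (right), with bars of 1 SE from the model. Diamonds are leading probe sets and filled symbols passed at an adjusted p under 0.05, which were 1 probe set of Ddit3 and both of Casp12 in TA and none in soleus.

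By branch, 6 of 7 IRE1 probe sets (Ern1 and Xbp1), 3 of 3 ATF6 probe sets and 10 of 11 PERK probe sets (Eif2ak3, Atf4, Ddit3, Atf3, Ppp1r15a and Trib3) had higher means in KO TA, at medians of 0.63, 1.23 and 0.54. In soleus it was 6 of 7, 3 of 3 and 8 of 11, at medians of 0.21, 0.51 and 0.36. These counts mix bright and dim probe sets of the same genes. In soleus limma called 0 of the 23, 2 having an unadjusted p under 0.05, where 0.0221% of all tested probe sets were called (5 of 22648) and 1757 had an unadjusted p under 0.05. The KO and WT values of 1 of 10 leading probe sets, Ddit3, did not overlap in soleus with KO higher, against 5.5% of all tested probe sets.

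Whether the KO effect differed between the muscles was tested as the effect in TA minus that in soleus. Limma called 0 of the 23 member probe sets (4 at an unadjusted p under 0.05), and 0.0353% of all tested probe sets (8, with 1193 at an unadjusted p under 0.05). Casp12 had the largest member differences, -2.51 (SE 0.62, adjusted p = 0.512) and -2.20 (SE 0.54, adjusted p = 0.5) on its probe sets, and Ddit3 differed by 1.31 (SE 0.61, adjusted p = 0.947). A larger effect of the knockout in TA than in soleus was therefore not shown for any member.

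Between the KO muscles 6.6% of all tested probe sets passed, and 3 member probe sets did. Both of Casp12 were higher in KO soleus than in KO TA. The leading one averaged 7.39 ± 0.53 in KO soleus and 4.44 ± 1.002 in KO TA (SD, n = 3 each). The difference was 2.95 (limma, adjusted p = 0.00418), or 6.95-fold between group means when counted from the background mark. With the KO arrays fitted alone the leading probe set lost this call (2.96, adjusted p = 0.0595). The dimmer Ern1 probe set was lower in KO soleus, at 4.46 against 5.35 in KO TA (-0.89, SE 0.21, adjusted p = 0.0334); the KO soleus mean lay under the background mark, so that it was at least 1.69-fold lower. In WT muscles Casp12 averaged 8.21 in soleus and 7.77 in TA, a difference of 0.45 (SE 0.44, adjusted p = 0.566). With the replicate block the leading Ern1 probe set (-1.41, adjusted p = 0.0246) and Atf4 (-0.47, adjusted p = 0.0467) were also lower in KO soleus than in KO TA, and a dim Ddit3 probe set was higher in WT soleus than in WT TA (0.64, adjusted p = 0.0302).

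Within groups the members varied together on some arrays. In KO soleus, replicate 3 was the highest of the 3 arrays for 9 of 10 leading probe sets, all but Casp12, against 46.7% of all tested probe sets. There it exceeded its group mean by 1.99 for Atf3, 1.98 for Trib3, 1.64 for Ern1, 1.15 for Ppp1r15a and 0.87 for both Atf6 and Ddit3. In KO TA the array numbered 3 was the highest for 7 of 10, in WT TA for 7 and in WT soleus for 5, against 36.7%, 44.9% and 46.3% of all tested probe sets. Ern1 was above its group mean on the array numbered 3 in all 4 groups, by 0.87 in KO TA, 0.55 in WT TA, 1.64 in KO soleus and 1.26 in WT soleus. KO TA replicate 1 was under its group mean for 9 of 10, all but Casp12, with deviations of -1.001 for Trib3 and -0.92 for Ddit3, against 54.5% of all tested probe sets under their group mean on that array.

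**Figure D4:**
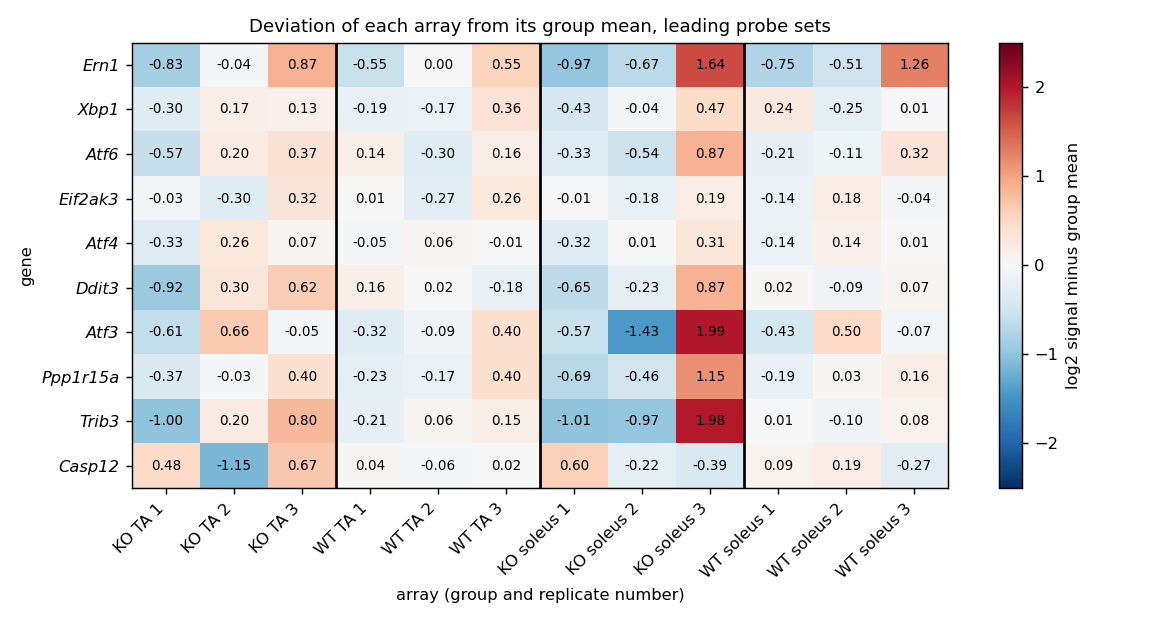
Log2 signal of each array minus the mean of its group, for the leading probe sets of the 10 genes (rows) on the 12 arrays (columns, KO before WT within each muscle). Red is above and blue below the group mean; KO soleus replicate 3 stands high for Atf3, Trib3, Ern1 and Ppp1r15a.

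Without the arrays numbered 3, the differences in TA were 1.87 for Ddit3, 1.11 for Atf6, 1.09 for Ern1, 1.07 for Xbp1, 0.81 for Trib3, 0.70 for Atf4 and -3.62 for Casp12, with the signs of the full set. In soleus Ddit3 then differed by 0.56, Xbp1 by 0.20 and Trib3 by 0.06, while Atf3 differed by -1.05. Leaving out KO soleus replicate 3 alone gave soleus differences of 0.52 for Ddit3 (adjusted p = 0.849), 0.20 for Xbp1, 0.01 for Trib3 and -1.02 for Atf3.

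The genes that the 3 branches are known to switch on in mammalian cells were read on their leading probe sets. These lists were chosen with earlier results of these data known. Their counts are therefore descriptions and not independent evidence. Of 14 ATF6 targets, 14 were on average higher in KO TA and 6 rose, where 2.02% of all tested probe sets were called in either direction, at a list median of 1.11. They were Manf (2.54, SE 0.41), a secreted ER stress protein, Cnpy3 (2.14, SE 0.30), a chaperone of Toll-like receptors, Creld2 (1.72, SE 0.35), Hspa5 (1.69, SE 0.33), the chaperone BiP that holds the sensors inactive, Calr (1.49, SE 0.24) and Hsp90b1 (1.24, SE 0.26), both ER chaperones. Cnpy3 lay under the background mark in WT TA and was at least 2.78-fold higher in KO TA. In soleus 14 of 14 were higher and none passed limma, at a median of 0.46, with Manf at 1.25 (adjusted p = 0.438) and Hspa5 at 0.80 (adjusted p = 0.594).

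Of 31 XBP1 targets, 30 had a higher mean in KO TA and 10 rose, again against 2.02% of all tested probe sets called, at a list median of 0.75. Among these were Sdf2l1 (2.20, SE 0.37) and Dnajb9 (1.96, SE 0.40), co-chaperones of BiP, and Pdia6 (1.78, SE 0.27), a disulfide isomerase. Spcs3 (1.19) and Spcs2 (1.10), subunits of the signal peptidase, and Ssr2 (1.02), of the translocon-associated complex, rose as well. Sdf2l1 was under the mark in WT TA, at 3.67, and was at least 2.42-fold higher in KO TA. In soleus 28 of 31 were higher and none passed limma, at a median of 0.30, Dnajb9 differing by 1.18 (adjusted p = 0.461) and Pdia6 by 0.97 (adjusted p = 0.349).

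Of 35 ATF4 and CHOP targets outside the member set, 30 had a higher mean in KO TA and 1 rose, Aldh18a1 (2.26, SE 0.34, adjusted p = 0.0151), the enzyme that starts proline synthesis. The list median was 0.45. A count of 1 in 35 is near the 2.02% called over all tested probe sets. Mthfd2 of mitochondrial folate metabolism, singled out after its value was seen, differed by more (3.38, SE 0.82) but did not pass (adjusted p = 0.0719). In soleus 26 of 35 were higher, at a median of 0.19, and none passed limma, with Mthfd2 at 1.92 (adjusted p = 0.616) and Asns at 1.15 (adjusted p = 0.857). Between them the lists of ATF6 and XBP1 targets share 1 gene (Sel1l), and so do those of ATF6 and of ATF4 with CHOP (Herpud1). This overlap describes how the lists were drawn up and does not make their counts separate readouts of the branches. Of 20 partners and paralogs of the sensors 1 rose in KO TA, Rtcb (0.53, SE 0.09, adjusted p = 0.0191), the ligase that joins the Xbp1 mRNA after IRE1alpha has cut it, which differed by 0.35 in soleus (adjusted p = 0.277). With 20 genes a count of 1 is likewise not set apart from that share.

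These target counts depended on single arrays. With KO TA replicate 2 left out, 1 XBP1 target and 0 ATF6 targets passed, and without the arrays numbered 3 it was 0 and 2, whereas with the replicate block 15 XBP1, 7 ATF6 and 7 ATF4 and CHOP targets passed. Leaving out KO TA replicate 3 gave 4 and 2, and leaving out WT TA replicates 1, 2 and 3 gave 4, 4 and 3 XBP1 targets and 3, 2 and 1 ATF6 targets.

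**Figure D5:**
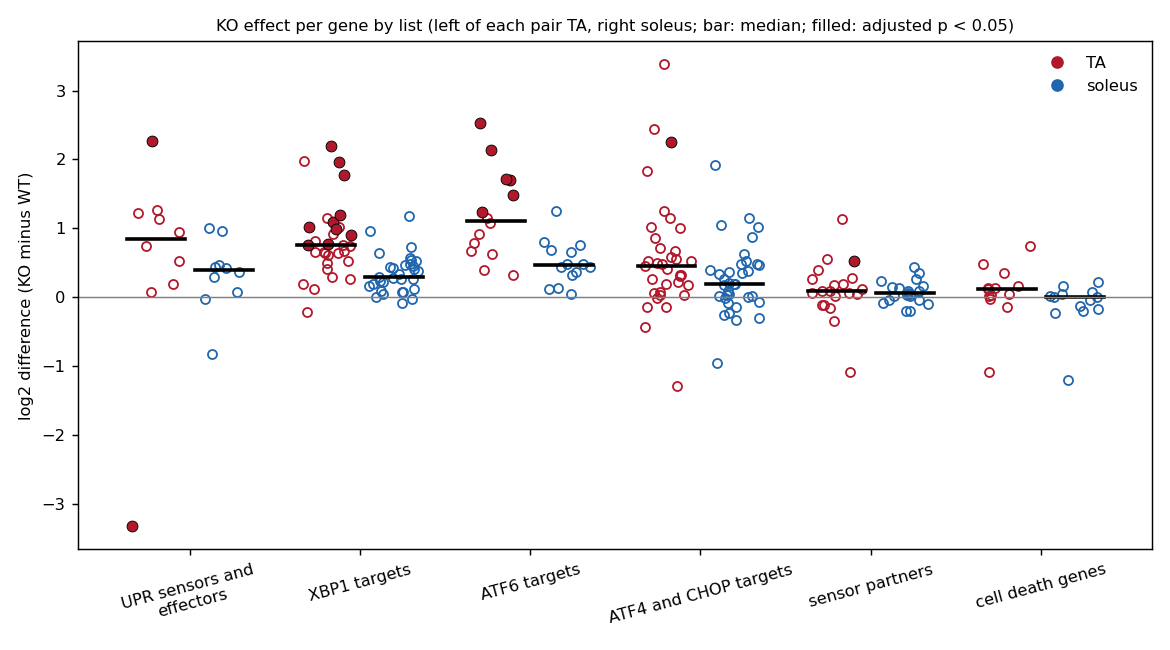
Log2 difference, KO minus WT, per gene on leading probe sets, for the 10 UPR sensors and effectors and for lists of their targets, partners and cell death genes, in TA (left of each pair, red) and soleus (right, blue). Bars are medians and filled points passed at an adjusted p under 0.05; in TA the medians are 0.84 for the sensors and effectors, 0.75 for XBP1 targets, 1.11 for ATF6 targets and 0.45 for ATF4 and CHOP targets.

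The genes most like Ddit3 and Casp12 over the 12 arrays were found by Pearson correlation among leading probe sets, as a description: arrays share muscle, genotype and the spread of the arrays numbered 3. Closest to Ddit3 were Arfgap3 (0.97), Hspa8 (0.96), Eif3d (0.96), Tmed9 (0.95) and Ddx50 (0.95). Arfgap3 averaged 6.23 in KO TA against 4.23 in WT TA, and 5.63 in KO soleus against 4.72 in WT soleus. Closest to Casp12 were Smim27 (0.95), Haus1 (0.94), Ctxn3 (0.94), Inca1 (0.94) and Cep63 (0.93). Ctxn3 averaged 6.35 in KO TA against 8.45 in WT TA, and 8.53 in KO soleus against 9.14 in WT soleus.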

How the data were processed

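Total RNA of 12 muscles was hybridised to one-colour Affymetrix arrays, per the labels' protocols. The table the authors deposited holds log2 signal for 45101 probe sets, from 0.89 to 16.36, with 0 missing values. The submitters' processing notes name MAS5 without version or role, and the summary method and the genome build are not given in the sources used here. Groups and replicate numbers came from the titles. The arrays' 2% trimmed means differed by up to 1.11 times, so arrays were quantile normalized. Of 34945 probe sets with 1 gene symbol (932 had several, 9160 none, 64 were controls), 22648 were tested, those that on 3 arrays or more exceeded the array's 40th percentile, log2 2.76 after normalization.

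limma 3.58.1 in R 4.3.3 was fitted on 4 group means over all 12 arrays with a variance trend, 2-sided, adjusted by Benjamini-Hochberg over all tested probe sets, at a threshold of 0.05. Replicates were not traced to animals beyond being called biological. Deviations from group means of equal replicate numbers were correlated over probe sets. The values were 0.34, 0.32 and 0.63 in KO and WT TA and 0.38, 0.10 and 0.67 in KO and WT soleus. They were 0.45, 0.55 and 0.66 in the KO muscles and 0.40, 0.16 and 0.61 in the WT muscles. The highest value of each set was that of the arrays numbered 3, which stood apart in every group. Their shift also moves the group means, and with them the deviations of the other arrays. Unequal replicate numbers were not compared, so these values cannot show that the other arrays were paired by number. The replicate block took equal numbers as matched, which the labels do not state. It is given where it changes a call.

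Named genes were all members, H6pd, list genes past the test (up to 6 per list and comparison) or else the 2 of largest difference, the 5 genes most correlated with a called member, and genes within 1000000 bases of Casp12 in the RefSeq table. Members, lists and motifs were chosen with earlier results of these data known. The fit was checked on simulated data.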

Additional observations from a re-analysis of the deposited data

How the results depend on the processing

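Of 23 member probe sets, 3 passed between KO and WT TA, and the count was 7 with the replicate block, 0 with the TA arrays alone, 1 without the arrays numbered 3 and 2 to 5 when single arrays were left out. In soleus it was 0 under every setting run, and so for the difference of the KO effects. Soleus against TA gave 1 in WT, which was 0 with no filter on low values and with a pseudocount of 32, 2 with the block and with the WT arrays alone, and 0 to 1 without single arrays. In KO it gave 3, with 6 under the block, 1 with the KO arrays alone and 2 to 3 without single arrays. Over all probe sets 458 passed in TA, against 1231 with the block (646 higher, 585 lower), 3 with the TA arrays alone, 35 without the arrays numbered 3 and 75 to 531 without single arrays. In soleus it was 5, against 3 with no filter, 1 with a filter on mean signal, 1 with no variance trend, 0 with the soleus arrays alone, 2 without the arrays numbered 3 and 2 to 15 without single arrays.

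Of the alternative values of single members, 994 kept direction and side of the threshold, 23 lost the call, 16 gained one and 52 changed sign; none of those that changed sign had been called. The cause was not tested. Without the arrays numbered 3, KO minus WT in soleus was -0.11 for Ern1 and -0.027 for Ppp1r15a, and for Ppp1r15a the difference of KO effects was 0.10 and soleus minus TA in KO -0.28. With the table as deposited, soleus minus TA was 0.032 for Atf6 and 0.0079 for Trib3 in KO and 0.056 for Atf4 in WT. With median centring it was 0.044 for Atf6 and 0.0204 for Trib3 in KO, and 0.13 for Atf4 and 0.0038 for Ern1 in WT. With the pseudocount, Atf3 in soleus was 0.036, and Trib3 was -0.069 for the difference of KO effects and 0.086 for soleus minus TA in KO. Leaving out single arrays, KO minus WT in soleus ran from -0.74 to 0.71 for Ern1, -0.0012 to 0.71 for Atf6, -1.02 to 0.69 for Atf3 and -0.11 to 0.82 for Ppp1r15a, and in TA from -0.14 to 0.50 for Atf3 and -0.13 to 0.27 for Ppp1r15a. The difference of KO effects ran from -0.50 to 1.21 for Atf3, -0.74 to 0.18 for Ppp1r15a and -0.38 to 1.12 for Trib3. Soleus minus TA in WT ran from -0.85 to 0.15 for Ern1, -0.087 to 0.052 for Atf4 and -0.041 to 0.14 for Trib3, and in KO from -0.31 to 0.13 for Xbp1, -0.50 to 0.21 for Atf6, -0.48 to 0.44 for Ppp1r15a and -1.05 to 0.44 for Trib3. Trib3, the dim probe sets of Ern1, Atf4, Ddit3 and Eif2ak3, and Casp12 in KO TA lie near or under the background mark, where signal limits the size of a difference.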

Other observations

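Genes of cell death under ER stress and the other caspases were read beside the members. Of 13 tested genes of ER stress cell death, 10 had a higher mean in KO TA and limma called none (median 0.11). Bcl2, which restrains the mitochondrial death pathway, averaged 5.84 in KO TA against 6.93 in WT TA (-1.09, SE 0.42, adjusted p = 0.248), and its antagonist Bcl2l11 averaged 4.73 in KO TA against 3.99, under the background mark, in WT TA (0.74, adjusted p = 0.501). In soleus 7 of the 13 were higher and none was called, with Capn1, a calpain subunit, at 4.57, under the background mark, in KO against 5.77 in WT (-1.20, adjusted p = 0.535) and Casp8 at 6.80 in KO against 7.03 in WT.

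Of 5 other caspases tested, 4 had a higher mean in KO TA and 2 in KO soleus, and none was called in either muscle. Casp6 averaged 5.41 in KO TA against 5.08 in WT TA (0.33, adjusted p = 0.562), and Casp9 was under the background mark in all groups.

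Within 1000000 bases of Casp12 the RefSeq table lists 16 genes, of which 6 were on the array and 4 were tested. In TA they differed between KO and WT by 0.14 (Msantd4), -0.02 (Gria4), 0.02 (Casp1) and -0.03 (Pdgfd), and none was called in TA or soleus. Gria4 and Casp1 were under the background mark in all groups, so that a lower level could not have been seen. Msantd4 averaged 9.68 in KO TA against 9.54 in WT TA.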
